A study of Mus musculus with 4 samples.

Results

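The 34 genes described here are genes of the oocyte and of maternal effect, which are active in the growing egg and whose products the early embryo inherits. They were chosen as a list of gene names, and every probe that carries such a name in the array files was taken. This gave 42 probes of 39429, for 34 of 30199 gene names on the array, and 7 of the genes had more than 1 probe. The cells were E14tg2a cells, a line of mouse embryonic stem (ES) cells kept without feeder cells in medium with serum and leukemia inhibitory factor. Cy3-labeled RNA was read on 4 Agilent arrays of a single slide, each with 1 color. The arrays held untreated cells (labeled non-treated, and taken here as 0 h) and cells transfected with control siRNA and harvested at 72 h. They also held cells transfected with siRNA against Rif1 and harvested at 48 h or at 72 h (mRif1 siRNA, by the methods mRif1#2 together with NC#1). Rif1 is a chromatin protein that controls the timing of DNA replication.

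Each condition had 1 array, so the differences have no replicates and no p-values, and precision is limited by how few arrays there are. The expression level of a probe is its background-subtracted signal divided by the 75th percentile of its array. The error after a level (±) is the error that the scanner software gives for the spot, which covers the measurement of that spot and not the spread between cultures. A probe that the software did not find well above background is called dim. Where 1 side of a comparison was dim, the lowest level that counted as well above background on its array took its place, or its own level where that was higher, which makes the fold a lower bound. Both Rif1 siRNA comparisons use the same control siRNA array, so a high or low spot on that array moves both. That array was harvested at 72 h, so the 48 h comparison also differs in time of harvest. Rif1 siRNA and time cannot be told apart in the 48 h folds. Untreated cells were not transfected and had no matched harvest time, so transfection, siRNA and time cannot be told apart in comparisons with them. Probes differ in how brightly they light up, so "brighter" and "fainter" name a probe by its signal and say nothing of the amount of transcript, and a summed level over several probes weighs the bright ones most. In a bulk sample, fewer cells of a type and less RNA per cell cannot be told apart.

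As background, the zona pellucida glycoproteins form the coat of the egg, and the transcription factors Figla, Nobox and Sohlh1 switch on oocyte genes, the zona genes among them. Gdf9 and Bmp15 are growth factors that the oocyte secretes and the granulosa cells around it receive. Nlrp5, Ooep, Tle6 and Padi6 are parts of the subcortical maternal complex, without which the embryo stops at early cleavage. Many other members of the NLRP family are also made in oocytes. ES cells in culture pass now and then through a state that resembles the 2-cell (2C) embryo, with high Zscan4. Oocyte genes and 2C genes are different sets, since the former are made before fertilization and the latter when the genome of the embryo is switched on.

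The arrays were first checked for the targeted gene and for cell type markers. The Rif1 probe was 2.53-fold lower at 48 h and 1.31-fold lower at 72 h than with control siRNA, with levels of 5.55, 5.42, 2.15 and 4.15 in untreated, control siRNA, 48 h and 72 h cells. All 4 probes for the 2C genes Zscan4c and Zscan4f were higher, by 13.1-fold to 24-fold at 72 h. They were also over 2-fold higher with control siRNA than in untreated cells, with log2 differences from 1.04 to 1.21, so the control siRNA array on which the folds rest itself differed from untreated cells in these genes. The 14 probes of 9 ES cell markers had summed levels of 258, 265, 273 and 265 on the arrays in the same order, and 13 or 14 of them were well above background on each array. Among 7 granulosa cell markers, Amh and Fshr were dim on all arrays, and the summed level of 8 probes was 23.9, 26.2, 21.7 and 21.3, of which 1 of the 2 Foxl2 probes gave 22.3, 24.4, 20.4 and 20.1. Of the 8 probes, 5 passed the filter and were measured against control siRNA, with log2 differences from -1.02 to -0.28 at 72 h and from -0.87 to -0.15 at 48 h. The lowest at 72 h was Hsd17b1, at 2.03-fold lower, which was also at least 2.10-fold higher with control siRNA than in untreated cells. Cyp19a1, which did not pass the filter, went the other way, being dim on the other arrays and at 0.0217 at 72 h, at least 1.36-fold over control siRNA. For 8 fibroblast markers, Lum and Postn were dim on all arrays, and the summed level of 8 probes was 4.23, 3.82, 4.46 and 4.48, of which the Thy1 probe gave 3.5, 3.11, 3.43 and 3.24. Of these, 4 were measured against control siRNA, with log2 differences from 0.06 to 0.82 at 72 h and from 0.14 to 0.55 at 48 h, and 0 passed 2-fold. Col1a1 and Col1a2 were at the upper end, at 1.76-fold and 1.77-fold higher at 72 h. The part of other cells in the results below was not tested.

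Only 1 of the 34 genes, of which 24 had a probe past the filter, passed 2-fold in either Rif1 siRNA comparison. Of all probes past the filter, 2.83% were over 2-fold higher at 72 h and 3.17% at 48 h, and 1.00% and 1.19% were lower. Nlrp4c, a member of the NLRP family, was higher on both of its probes and at both times. Its transcripts are known from oocytes, and NLRP proteins as a group carry a nucleotide-binding domain and leucine-rich repeats. The 2 probes lie 441 bases apart on the plus strand of mm9 chromosome 7, at chr7:6056667-6056726 (A_55_P2016882) and chr7:6056226-6056285 (A_55_P2105195). The array files place them at bases 3529 and 3088 of the Nlrp4c transcript, so both are exonic, and whether these bases are coding was not examined. The first 30 bases of each probe are shown because these spots carry the result.
Nlrp4c A_55_P2016882: gaaatggacaaaggttggggaaatgatgat
Nlrp4c A_55_P2105195: aaacaaaggtggatgttctgctgcaagaaa

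The brighter Nlrp4c probe, A_55_P2016882, had levels of 0.568 ± 0.057 without transfection, 0.359 ± 0.0361 after control siRNA, 1.05 ± 0.105 after Rif1 siRNA for 48 h and 0.959 ± 0.0959 after 72 h of it. The fainter Nlrp4c probe, A_55_P2105195, had levels of 0.0622 ± 0.00877, 0.0484 ± 0.00632, 0.151 ± 0.0152 and 0.138 ± 0.0139 in the same order. On both probes the Rif1 siRNA arrays were the 2 highest, and the control siRNA array was the lowest. Against control siRNA the brighter probe was 2.67-fold higher at 72 h (log2 1.42 ± 0.20) and 2.93-fold higher at 48 h (1.55 ± 0.20). The fainter probe was 2.86-fold higher at 72 h (1.52 ± 0.24) and 3.12-fold higher at 48 h (1.64 ± 0.24).

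The untreated array lay between the control siRNA and Rif1 siRNA arrays. Nlrp4c was 1.58-fold lower with control siRNA than in untreated cells on the brighter probe (log2 -0.66 ± 0.20) and 1.29-fold lower on the fainter probe (-0.36 ± 0.28). Against untreated cells, the brighter probe was 1.69-fold higher at 72 h and 1.86-fold higher at 48 h, which is under 2-fold. The fainter probe was 2.22-fold and 2.43-fold higher there. With another background correction (normexp), the log2 difference of the fainter probe against control siRNA was 0.86 at 72 h and 0.98 at 48 h, under 2-fold, whereas the brighter probe stayed over it at 1.30 and 1.43.

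**Figure D1:**
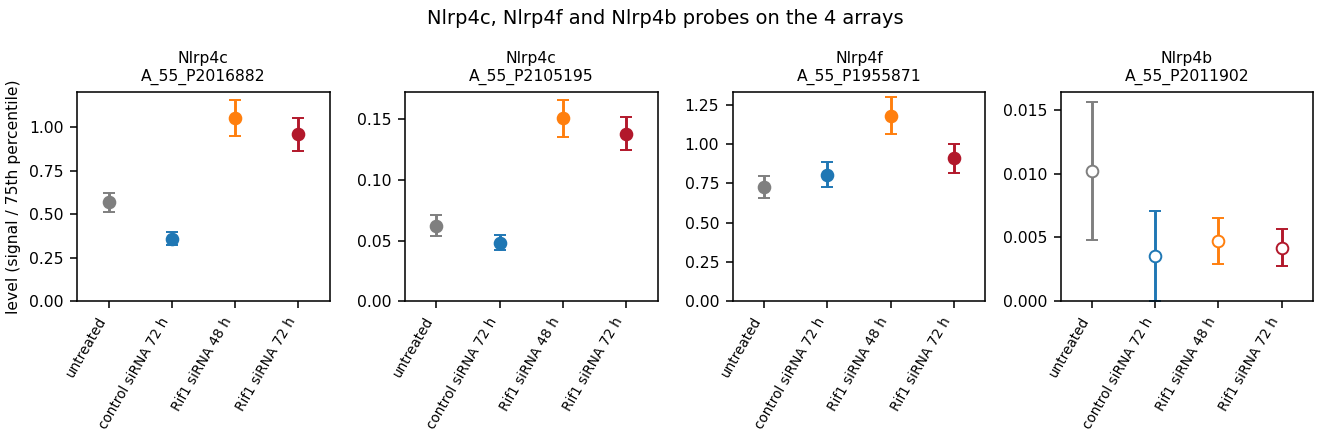
Levels (processed signal over the 75th percentile of the array, linear axis) of the Nlrp4c, Nlrp4f and Nlrp4b probes on the 4 arrays, each panel with its own axis from 0; bars are the error the software gives for the spot, and open points are not well above background. Both Nlrp4c probes are highest on the Rif1 siRNA arrays, Nlrp4f is highest at 48 h (1.18), and Nlrp4b is dim on all arrays.

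Nlrp4 genes are close copies of each other, and a probe can take up transcripts of a relative. Of the 42 probes, 8 shared a word of 16 bases with a probe of another gene name on the array. The brighter Nlrp4c probe was among them, and it shared its longest run of 16 bases with the Nlrp4f probe A_55_P1955871. Laid on that run, the 2 probes were the same at 38 of 59 bases. The Nlrp4f probe shared another run of 16 bases with the Nlrp4b probe A_55_P2011902, and these were the same at 38 of 58 bases. The fainter Nlrp4c probe shared no such word with any probe, but relatives without an unbroken run of 16 bases were not searched for. Over the first 30 bases it resembles the Nlrp4a probe A_55_P2072293, with scattered mismatches. That Nlrp4a probe had log2 differences from control siRNA of -0.05 at 72 h and -0.66 at 48 h. Windows of 30 bases around the shared runs, which are in capitals, show how close the probes are.
Nlrp4c A_55_P2016882: ggaaactgtTGCTGTTTTGTGTTTTttatt
Nlrp4f A_55_P1955871: gaaattgcTGCTGTTTTGTGTTTTatatta
Nlrp4b A_55_P2011902: actggacACTCAGATAATGGAAActattgc
Nlrp4f A_55_P1955871, second run: actggatACTCAGATAATGGAAAttgctgc

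These related probes gave different values. Nlrp4f had levels of 0.728, 0.807, 1.18 and 0.91 in untreated, control siRNA, 48 h and 72 h cells, which is 1.46-fold higher than control siRNA at 48 h and 1.13-fold higher at 72 h. Nlrp4b was dim on all arrays. The control siRNA array was the lowest of the 4 for Nlrp4c but not for Nlrp4f.

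Of the 42 probes, 28 passed the filter on low values, for 24 of the 34 genes. A probe could pass through the arrays where it was bright, so these 28 are not a sample of all members. Among them, 2 (7.14%, both for Nlrp4c) were over 2-fold higher at 72 h of Rif1 siRNA, beside 783 of all 27706 probes past the filter (2.83%), and 0 were over 2-fold lower, beside 278 (1.00%). At 48 h the counts were 2 higher (7.14%), beside 878 of all probes (3.17%), and 0 lower, beside 330 (1.19%). As both called probes read a single gene, they are 1 gene of 24. Between control siRNA and untreated cells 0 of the 28 were over 2-fold higher and 0 lower, beside 0.585% and 1.03% of all probes. Between the 72 h and 48 h arrays of Rif1 siRNA the counts were also 0 and 0, beside 0.491% and 0.679%.

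The probes measured on both arrays numbered 22 in each Rif1 siRNA comparison. Their median log2 difference from control siRNA was 0.10 at 72 h, with 15 above 0 and 7 below. Over all 24312 probes measured there the median was -0.07, and 36.9% lay above 0, beside 68.2% of the 22. At 72 h, 19 of the 22 (86.4%) lay within 0.5 of 0, beside 91.1% of all measured probes, and at 48 h 14 of the 22 (63.6%) did, beside 88.2%. At 48 h the members' median was 0.25, with 14 above 0 (63.6%) and 8 below. That of all 24266 measured probes was -0.07, with 38.7% above 0. With the normexp correction the members' median at 72 h was -0.03 and that of all probes -0.11, so the sign of the members' median depended on the correction. Control siRNA and untreated cells differed with an SD of 0.26 (log2) over all measured probes. For probes with a mean level under 0.1 this SD was 0.43, beside 0.22 from 0.1 to 1 and 0.14 over 1. These SDs give a scale for values of single probes, not for a median, and are not replicate SDs.

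**Figure D2:**
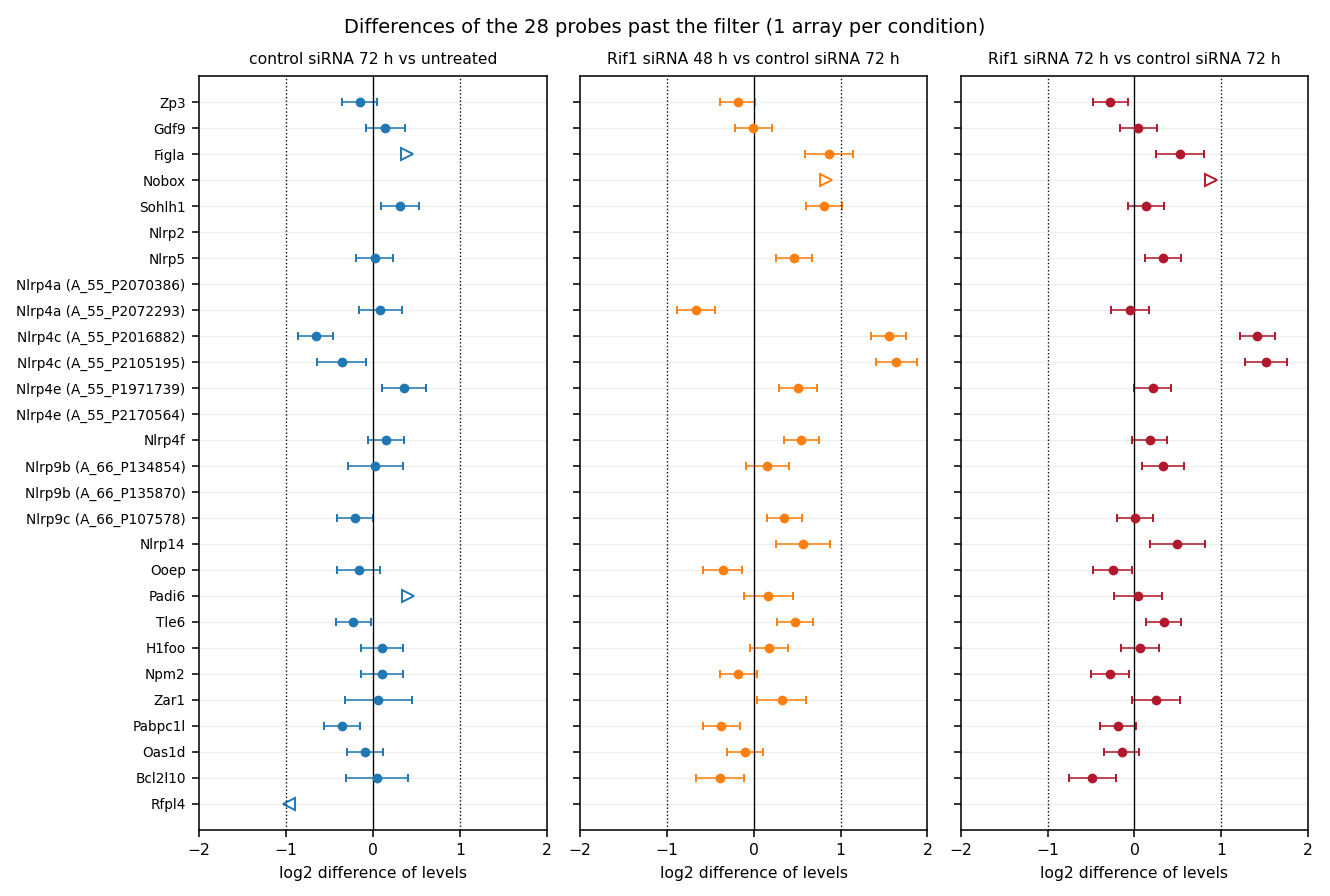
Log2 differences of the 28 probes past the filter in the comparisons of control siRNA with untreated cells and of Rif1 siRNA at 48 h and 72 h with control siRNA at 72 h; bars are the combined error of the 2 spots, open triangles are lower bounds, dotted lines mark 2-fold, and a row without a point had no value because of dim spots. Only the 2 Nlrp4c probes lie beyond the dotted lines, between 1.42 and 1.64, and they lie below 0 between control siRNA and untreated cells.

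Of the oocyte transcription factors, 0 passed 2-fold against control siRNA. Figla (mm9 chr6:85970895-85970954), a basic helix-loop-helix factor that activates the zona genes, had a dim level of 0.0285 ± 0.00767 in untreated cells and levels of 0.0374 ± 0.00597 with control siRNA, 0.0684 ± 0.0072 at 48 h and 0.0539 ± 0.00569 at 72 h. The 2 Rif1 siRNA arrays were the highest. Against control siRNA this was 1.83-fold at 48 h (log2 0.87 ± 0.28) and 1.44-fold at 72 h (0.53 ± 0.28), both under 2-fold. With the normexp correction these log2 differences were 0.34 at 48 h and 0.14 at 72 h. Against untreated cells it was at least 2.40-fold at 48 h and at least 1.89-fold at 72 h.

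Nobox (mm9 chr6:43253726-43253785), a homeobox factor needed for early follicles, was dim without Rif1 siRNA, at 0.00674 and 0.00677, and well above background with it, at 0.0282 ± 0.00358 (48 h) and 0.0291 ± 0.00342 (72 h). The lowest level well above background was 0.0159 on the control siRNA array. The bound was therefore at least 1.78-fold at 48 h and at least 1.84-fold at 72 h. Nobox at 0.0282 and 0.0291 was also above the highest of the 4 limits, which was 0.0236 on the untreated array.

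Sohlh1 (mm9 chr2:25698525-25698584), a helix-loop-helix factor of early oocytes, had levels of 0.0991 ± 0.0111, 0.123 ± 0.0127, 0.215 ± 0.0216 and 0.135 ± 0.0136 in untreated, control siRNA, 48 h and 72 h cells. Only the 48 h array stood out, at 1.75-fold over control siRNA (log2 0.81 ± 0.21), whereas the log2 difference at 72 h was 0.14 ± 0.21, within the error of the spots. Between the times Sohlh1 was 1.59-fold lower at 72 h. Against untreated cells the 48 h level was 2.18-fold higher.

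**Figure D3:**
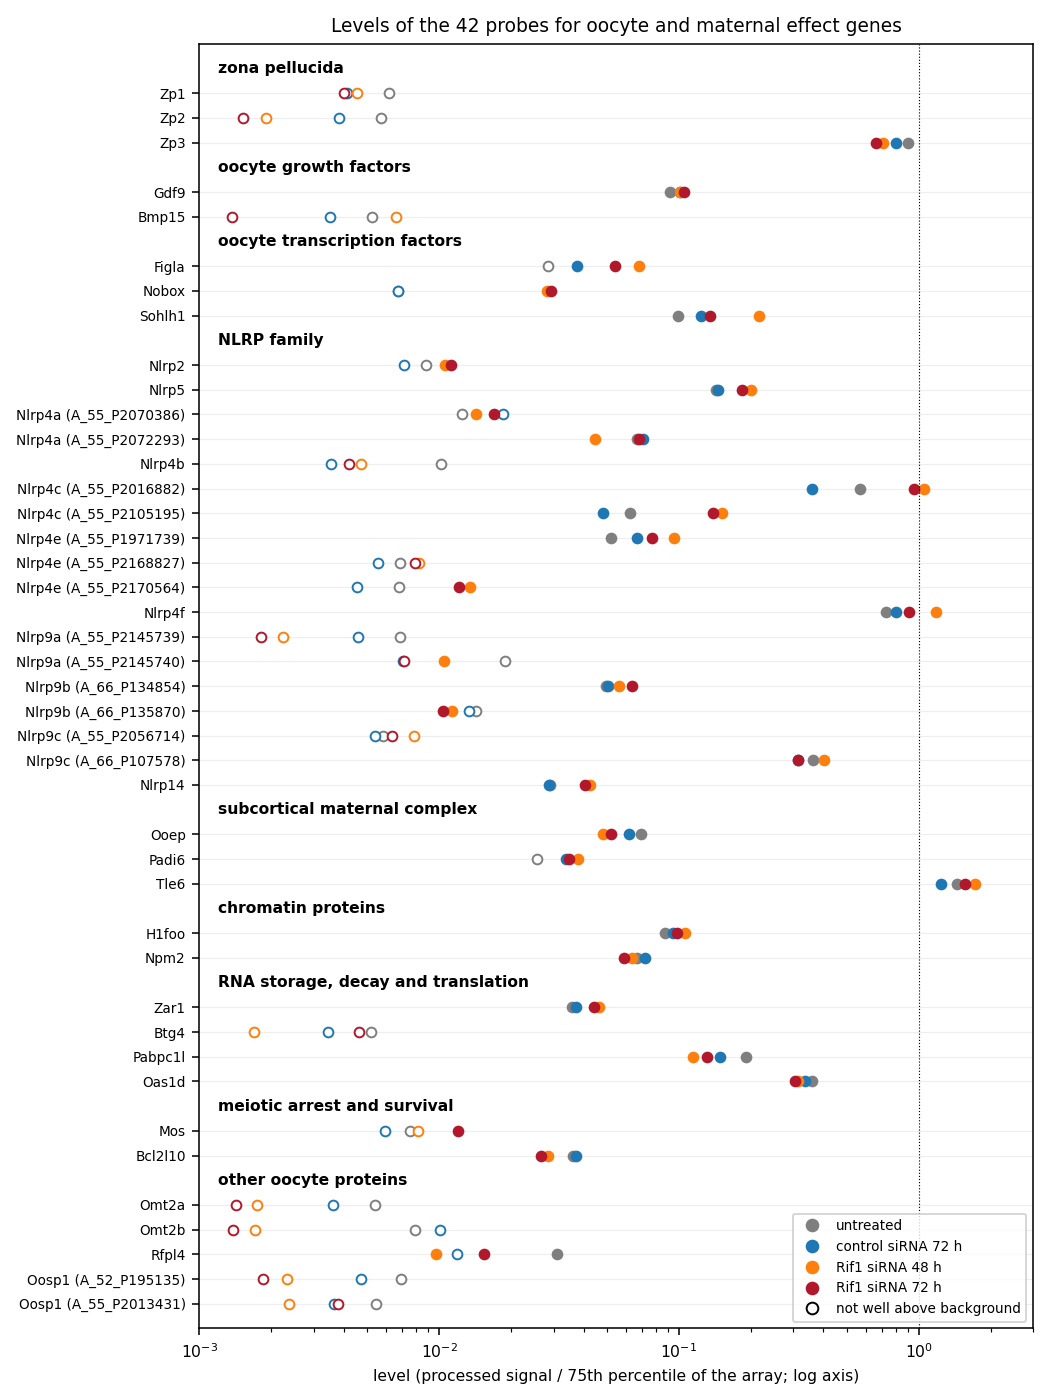
Levels of all 42 probes on the 4 arrays, grouped by the role of the gene, on a log axis; filled points are well above background, open points are dim, and the dotted line marks the 75th percentile of an array. Only Tle6 is above that line on all arrays, and 12 probes are open on all 4.

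Among the zona pellucida genes, Zp1 and Zp2 were dim on all arrays, with levels of 0.00619 or less. Zp3 (mm9 chr5:136464281-136464340), whose product binds sperm, was well above background on all of them, with levels of 0.898 ± 0.09, 0.807 ± 0.0808, 0.71 ± 0.071 and 0.666 ± 0.0666 in untreated, control siRNA, 48 h and 72 h cells. Rif1 siRNA arrays were the lowest for Zp3, by 1.14-fold at 48 h and 1.21-fold at 72 h (log2 -0.28 ± 0.20) against control siRNA.

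The promoters of Nlrp4c and Zp3 are shown as the gene over 2-fold and the detected zona gene. They are the 250 bases before the start in RefSeq (GRCm38.p6, a later build than the mm9 of the array files), with each E box in capitals. An E box has the letters CANNTG, which read as CANNTG on the other strand as well, and Figla with its partner binds a form of it. The Nlrp4c promoter is at chr7:6044911-6045160 (plus strand), and that of Zp3 is at chr5:135979855-135980104 (plus strand).
Nlrp4c promoter: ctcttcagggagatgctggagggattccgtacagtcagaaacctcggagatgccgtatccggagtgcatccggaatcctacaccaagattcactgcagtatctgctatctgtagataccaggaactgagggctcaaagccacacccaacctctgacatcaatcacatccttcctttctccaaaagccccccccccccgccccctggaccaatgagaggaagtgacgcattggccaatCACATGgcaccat
Zp3 promoter: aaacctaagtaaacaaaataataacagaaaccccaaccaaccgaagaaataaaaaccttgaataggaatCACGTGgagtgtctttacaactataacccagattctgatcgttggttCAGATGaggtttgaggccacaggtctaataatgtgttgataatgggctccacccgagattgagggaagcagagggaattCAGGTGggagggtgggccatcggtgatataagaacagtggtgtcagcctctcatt
The only E box of the Nlrp4c promoter starts 13 bases before the gene, and those of Zp3 start 181, 134 and 55 bases before it. RefSeq promoters were at hand for 26 of the 34 genes (30 promoters), and 28 of the 30 held an E box, beside 66.2% of all 32851 promoters of the same length. TAATTG, the Nobox element, searched on both strands, was in 4 of the 30 (Nlrp9a, Nlrp9b, Omt2b and Ooep), beside 7.17% of all. Nlrp4c and Zp3 held none. Of the 4 genes that did, Nlrp9a and Omt2b were too dim to give a fold in either Rif1 siRNA comparison, and Ooep and 1 Nlrp9b probe had values under 2-fold. A match of letters is a description of the window and does not show that a factor binds there.

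The oocyte growth factors differed in detection. Gdf9 was well above background on all arrays at 0.0918 ± 0.0103, 0.101 ± 0.0106, 0.101 ± 0.0102 and 0.104 ± 0.0105 in the order above. Each of these differences was within the combined error of the 2 spots compared, and the log2 difference from control siRNA was 0.04 ± 0.21 at 72 h. Bmp15 was dim on all arrays, at 0.00662 or less.

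The NLRP family took 18 of the 42 probes, for 11 genes. At 72 h, 13 of the 18 probes were well above background, against 9 with control siRNA and 8 in untreated cells, beside 73.5%, 62.2% and 58.2% of all probes. The 4 that were well above background at 72 h but not with control siRNA (1 probe each of Nlrp2, Nlrp4a, Nlrp4e and Nlrp9b) had levels of 0.0112, 0.0169, 0.0121 and 0.0103 at 72 h, all under 0.0236, the highest of the limits of the 4 arrays. Of the probes, 9 were measured on both arrays of that comparison, with log2 differences from -0.05 to 1.52 and a median of 0.33. At 48 h the range was from -0.66 to 1.64 and the median 0.51. Of the 13 NLRP probes past the filter, 2 were over 2-fold higher at each time, both for the single gene Nlrp4c. Among all probes past the filter, 2.83% were over 2-fold higher at 72 h and 3.17% at 48 h. Over all measured probes the median was -0.07 at both times. With the normexp correction the range was from -0.19 to 1.30 at 72 h and from -0.54 to 1.43 at 48 h. There Nlrp14 was at 0.13 at 72 h and 0.17 at 48 h, against 0.50 and 0.57 without the correction. Nlrp4f was at 0.15 and 0.53, against 0.17 and 0.55. The summed level of the 18 probes was 1.96 with control siRNA and 2.15 in untreated cells, beside 3.31 at 48 h and 2.83 at 72 h. Within this sum, the brighter Nlrp4c probe was at 0.359 with control siRNA and 0.959 at 72 h.

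Nlrp5 (Mater; mm9 chr7:24226882-24226940), the founding maternal effect gene of the family, had levels of 0.143 ± 0.0153, 0.145 ± 0.0149, 0.2 ± 0.0201 and 0.183 ± 0.0184 in untreated, control siRNA, 48 h and 72 h cells. The 2 Rif1 siRNA arrays were the highest, by 1.38-fold at 48 h and 1.26-fold at 72 h over control siRNA. Nlrp14, which is also made in oocytes, was dim in untreated cells (0.0289) and had levels of 0.0287 ± 0.00533, 0.0425 ± 0.00478 and 0.0404 ± 0.00442 on the other arrays. Its log2 difference from control siRNA was 0.57 ± 0.31 at 48 h and 0.50 ± 0.31 at 72 h. Nlrp2 was dim on the arrays without Rif1 siRNA (0.00886 and 0.00712) and just above background at 0.0106 and 0.0112 with it, under the limits of both other arrays, so no fold was given.

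Probes of a single NLRP gene often disagreed in detection. Nlrp4a had a probe that was well above background on all arrays (A_55_P2072293; 0.067, 0.0711, 0.0449 and 0.0684), with the lowest level at 48 h, 1.58-fold under control siRNA. The other Nlrp4a probe, 196 bases away, was dim on the arrays without Rif1 siRNA and at 0.0142 and 0.0169 with it. Of the 3 Nlrp4e probes, A_55_P1971739 was well above background on all arrays (0.052, 0.0667, 0.095 and 0.0771), A_55_P2170564 only with Rif1 siRNA (0.0135 and 0.0121), and A_55_P2168827 on none. The first of these was 1.42-fold higher than control siRNA at 48 h and 1.15-fold higher at 72 h. It spans 3587 bases of mm9, so it crosses an intron.

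The Nlrp9 genes showed the same kind of split. Nlrp9c probe A_66_P107578 had levels of 0.363, 0.314, 0.401 and 0.315, and its log2 difference from control siRNA was 0.00 ± 0.20 at 72 h and 0.35 ± 0.20 at 48 h. The other Nlrp9c probe was dim on all arrays. A_66_P107578 was the single member probe of the 42 whose transcript was not matched in the RefSeq table. Nlrp9b had a probe at 0.0497, 0.0507, 0.0565 and 0.0636, with a log2 difference from control siRNA of 0.33 ± 0.25 at 72 h, and another that was well above background only with Rif1 siRNA, at 0.0113 and 0.0103. Nlrp9a was dim on all arrays on 1 probe and well above background only at 48 h (0.0105) on the other.

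Chromosome 7 held 12 of the 34 genes and 19 of the 42 probes. Within 350 kb of Nlrp4c, 19 other probes passed the filter. Only 1 of them, for the vomeronasal receptor gene Vmn1r63 at 302 kb, was over 2-fold higher at both times (log2 2.13 at 72 h and 2.00 at 48 h). Another, A_55_P2043652 for the zinc finger gene Zfp667 at 203 kb, was over 2-fold lower at both times, being dim with Rif1 siRNA, with bounds of -2.18 at 72 h and -1.66 at 48 h. The other Zfp667 probe had log2 differences of -0.12 and -0.38. The transcript TC1676852, at 240 kb, was dim with control siRNA and had a bound of 1.80 at 48 h and 0.66 at 72 h. The zinc finger genes Zfp787 and Zfp444, at 27.1 to 85.2 kb from Nlrp4c, had log2 differences from -0.42 to -0.06. Nlrp4b lay 64.2 kb from Zscan4a, a gene of the 2C cluster, whose 2 probes were 19.7-fold and 20.1-fold higher at 72 h. Of 16 probes past the filter within 350 kb of Nlrp4b, 8 were over 2-fold higher at 72 h and 7 at 48 h, while Nlrp4b stayed dim, at 0.00421 and 0.00472. Around Nlrp5, 5 probes passed the filter and 0 were over 2-fold changed at either time.

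**Figure D4:**
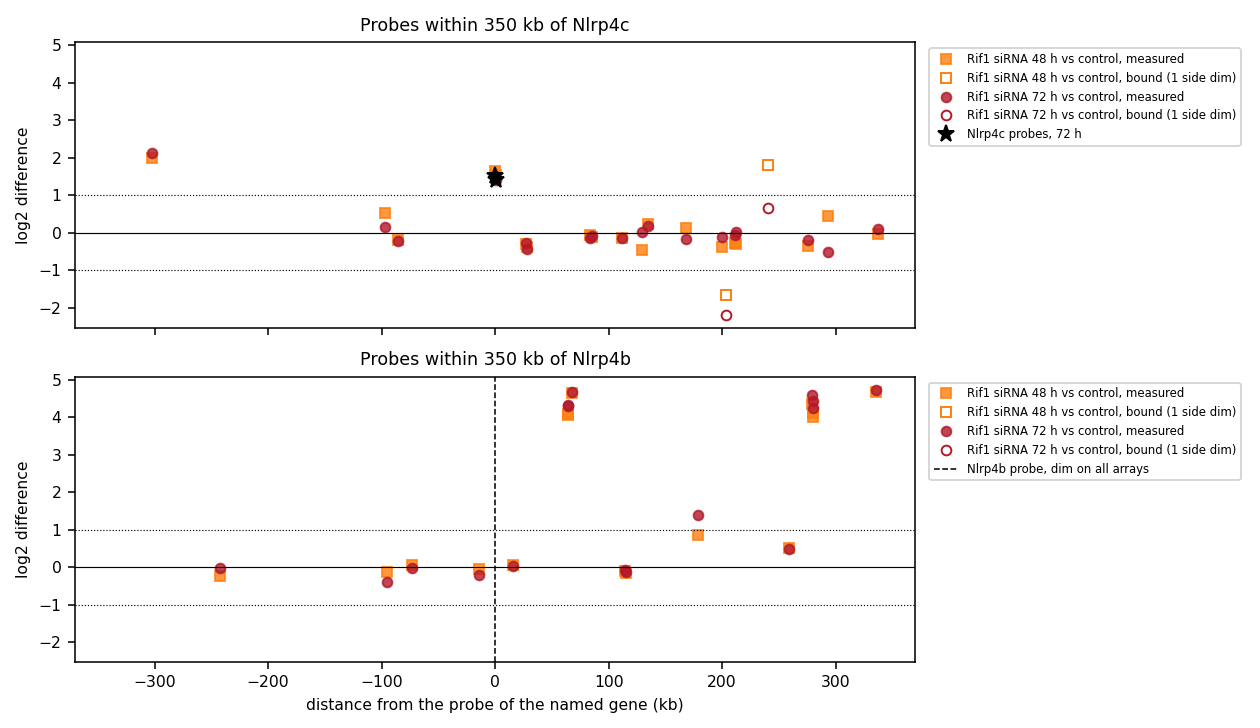
Log2 differences of probes past the filter within 350 kb of Nlrp4c (upper panel) and of Nlrp4b (lower panel), plotted by distance in kb on mm9 chromosome 7; squares are 48 h, circles 72 h, open symbols bounds, stars the Nlrp4c probes at 72 h, and the dashed line the dim Nlrp4b probe. In the upper panel Vmn1r63 at both times and TC1676852 at 48 h lie above the upper 2-fold line with Nlrp4c, and 1 Zfp667 probe lies below the lower line, while Nlrp4b, which is dim, has probes of the Zscan4 region to its right with log2 differences of 4.00 to 4.73.

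The other parts of the subcortical maternal complex were measured by 1 probe each. Tle6 (mm9 chr10:81053702-81053761), a co-repressor of the Groucho family, had levels of 1.44 ± 0.144, 1.23 ± 0.123, 1.72 ± 0.172 and 1.55 ± 0.155 in untreated, control siRNA, 48 h and 72 h cells. It was 1.39-fold higher than control siRNA at 48 h and 1.26-fold higher at 72 h, and 1.19-fold and 1.08-fold higher than untreated cells. Ooep (Floped) had levels of 0.0692, 0.0616, 0.0481 and 0.0519, with the Rif1 siRNA arrays lowest, 1.28-fold and 1.19-fold under control siRNA. Padi6, a peptidylarginine deiminase family protein, was dim in untreated cells (0.0256) and at 0.0337, 0.0379 and 0.0347 on the others, within the error of the spots. Genes of the complex thus lay on both sides of 0 (Nlrp5 and Tle6 above, Ooep below), and 0 passed 2-fold.

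Of the chromatin proteins and the genes of RNA storage, decay and translation, 0 passed 2-fold. H1foo, the linker histone of the oocyte (H1f8 in RefSeq), had levels of 0.0874, 0.0942, 0.106 and 0.0986. Npm2, the nucleoplasmin that acts on sperm chromatin after fertilization, had levels of 0.0669, 0.0719, 0.0636 and 0.0592, and its log2 difference from control siRNA was -0.28 ± 0.22 at 72 h. Zar1, a maternal effect gene whose protein binds stored RNA, had levels of 0.0357, 0.0372, 0.0465 and 0.0441. Pabpc1l, the poly(A)-binding protein of the oocyte, was highest in untreated cells, with levels of 0.19 ± 0.0197, 0.149 ± 0.0153, 0.115 ± 0.0116 and 0.131 ± 0.0131. Control siRNA was thus 1.28-fold under untreated cells for Pabpc1l, and Rif1 siRNA a further 1.29-fold lower at 48 h and 1.14-fold lower at 72 h. Oas1d, an oligoadenylate synthetase relative made in oocytes, had levels of 0.358, 0.337, 0.314 and 0.304. Btg4, an adaptor for the removal of poly(A) tails during decay of maternal mRNA, was dim on all arrays.

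The last genes were low or dim throughout. Bcl2l10, a member of the BCL2 family, had levels of 0.0361 ± 0.0071, 0.0371 ± 0.00553, 0.0283 ± 0.00348 and 0.0265 ± 0.00312, and was 1.31-fold lower than control siRNA at 48 h and 1.40-fold lower at 72 h. Mos, the kinase that holds the mature egg in meiosis, was well above background only at 72 h, at 0.012 ± 0.00216, which is under the limits of the arrays without Rif1 siRNA. Rfpl4, a RING finger protein of oocytes, was highest in untreated cells at 0.031 ± 0.00616, dim with control siRNA (0.0119), and at 0.00972 ± 0.00201 and 0.0153 ± 0.00209 at 48 h and 72 h. The level of Rfpl4 was thus 3.19-fold lower at 48 h and 2.02-fold lower at 72 h than in untreated cells, and at least 1.95-fold lower with control siRNA. Omt2a and Omt2b, named for oocyte maturation, and both probes of the secreted oocyte protein Oosp1 were dim on all arrays, at 0.0101 or less.

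Detection of the genes was compared over the arrays. Of the 42 probes, 20 were well above background in untreated cells, 22 with control siRNA and 29 on each Rif1 siRNA array, for 19, 21, 25 and 25 genes. Over all 39429 probes, 58.2%, 62.2%, 70.9% and 73.5% were well above background, and the members' shares were 47.6%, 52.4%, 69.0% and 69.0%. The lowest level that counted as well above background fell in the same order, at 0.0236, 0.0159, 0.00779 and 0.00543, so the Rif1 siRNA arrays could show dimmer spots. With the highest of these limits on all arrays, an alternative chosen after the data were seen, 20, 22, 23 and 23 of the 42 probes were well above it, beside 22942, 23653, 24082 and 24044 of all 39429 probes. The Rif1 siRNA arrays thus had 7 more probes of these genes than the control siRNA array with their own limits and 1 more with the common limit.

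**Figure D5:**
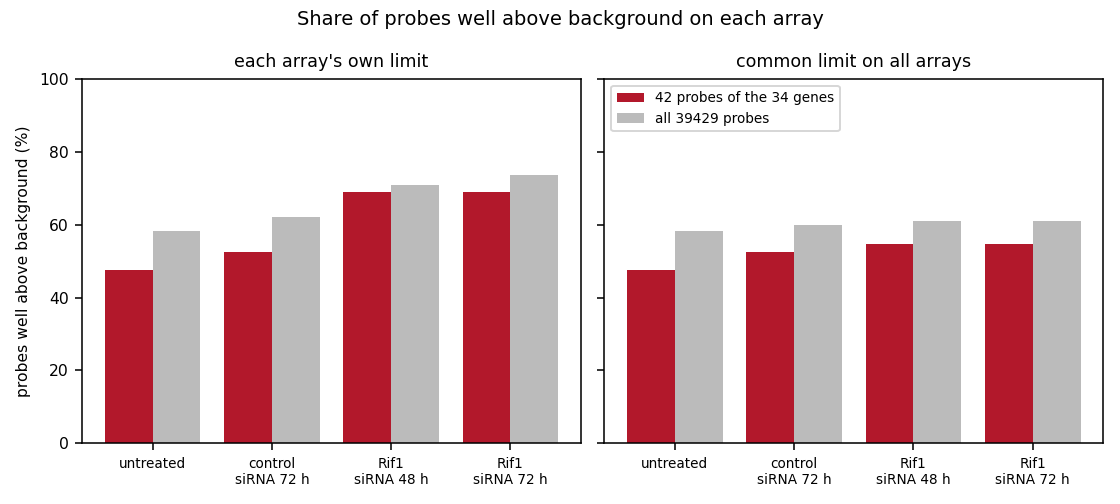
Share of probes (%) well above background on each array, for the 42 probes of the 34 genes and for all 39429 probes, with each array's own limit (left) and with a common limit (right). The members' share goes from 47.6% to 69.0% with the arrays' own limits, and the common limit leaves 20 to 23 of the 42 probes.

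By gene, 18 of the 34 were well above background on all 4 arrays on at least 1 probe, and 8 were on none (Zp1, Zp2, Bmp15, Nlrp4b, Btg4, Omt2a, Omt2b and Oosp1). Most of the detected probes were faint. Of the 28 past the filter, 19 had a mean level, taken over the log2 values of the 4 arrays, under 0.1, 8 lay between 0.1 and 1, and only that of Tle6 was over 1. Among all probes past the filter with a mean level under 0.1, 4.53% were over 2-fold higher at 72 h and 2.68% over 2-fold lower, beside 2.92% and 0.122% of those between 0.1 and 1 and 0.996% and 0.0311% of those over 1. The fainter Nlrp4c probe fell under 0.1 and the brighter one between 0.1 and 1.

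Other oocyte genes that are not among the 34 were examined as a list of 32 names, of which 29 had a probe. Of their 44 probes, 33 passed the filter, and 2 were over 2-fold higher than control siRNA at 72 h, 3 at 48 h, and 0 lower at either time. These are 6.06% and 9.09% of the 33, beside 2.83% and 3.17% of all probes past the filter, of which 1.00% and 1.19% were lower. The genes over 2-fold at both times were Dazl and Cpeb2. Dazl, a germ cell RNA-binding protein that promotes translation, had levels of 0.406 ± 0.0412, 0.274 ± 0.0278, 0.917 ± 0.0917 and 0.828 ± 0.0828 in untreated, control siRNA, 48 h and 72 h cells. This was 3.34-fold higher than control siRNA at 48 h and 3.02-fold higher at 72 h, and control siRNA was 1.48-fold under untreated cells. The order of the 4 arrays for Dazl was that of both Nlrp4c probes. Cpeb2, a cytoplasmic polyadenylation element binding protein, was dim without Rif1 siRNA and at 0.053 ± 0.00577 and 0.0639 ± 0.00665 with it, at least 3.34-fold and at least 4.03-fold higher. With the normexp correction only Dazl of this list stayed over 2-fold at either time, and Cpeb2 did not. Kpna7, an importin of the oocyte that is named here after its values were seen, was at least 2.83-fold higher at 48 h on probe A_55_P2101792, at 0.0449, and at 0.0133 at 72 h, under the limit of the control siRNA array. Its other probe did not pass the filter and was at least 1.43-fold higher at 48 h, at 0.0227. Between the times, 2 of the 33 probes (6.06%) were over 2-fold lower at 72 h than at 48 h, beside 0.679% of all probes, and 0 were higher. These were the Kpna7 probe past the filter, at 3.38-fold lower, and the probe of Patl2, at 2.08-fold lower (0.616 at 48 h and 0.296 at 72 h), and with the normexp correction 0 were.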

How the data were processed

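RNA of E14tg2a cells was measured on 4 one-color Agilent arrays, 1 per condition, with groups taken from the labels. The authors deposited the output of Agilent Feature Extraction 11.5.1.1 for each array, in which the processed signal of a spot is an intensity, background-subtracted and detrended by the software. The deposited files also hold flags and errors for each spot, probe sequences and positions on mm9. A deposited table gives each signal as a ratio, with the 75th percentile of the array as the divisor.

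For this report the processed signal was divided by that percentile over 43020 spots other than controls and taken to log2. Spots flagged as outliers were left out (none was a spot of the 42 probes), no spot was saturated, and repeated probes (399, with 10 spots each) were averaged. A probe passed the filter at or over the 20th percentile on at least 1 array and detected, or flagged as an outlier, on at least 2 arrays. A fold over 2, lower bounds included, was called. With 1 array per condition no test was made. Of the 42 probes, 41 were matched to the RefSeq table by accession, 40 of them with the same symbol. Promoter sequences came from RefSeq (GRCm38.p6). Python 3.11.15 with numpy 2.4.6 and pandas 2.3.3, and R 4.3.3 with limma 3.58.1 for normexp (offset 50), were used, and the steps were tested on simulated data.

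All 34 genes are named, and by rule those of the other lists that changed over 2-fold one way at 48 h and at 72 h. Kpna7, Patl2, Astl, single cell type markers and neighbouring genes were named beside these after their values were seen. The genes, lists and alternatives were chosen with earlier results of these data known. The alternatives were normexp background correction, quantile normalization, the deposited table, outlier spots kept, no filter, only probes bright on both arrays, dim signals as given, a 4-fold threshold, untreated cells as control and a common limit of detection.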

Additional observations from a re-analysis of the deposited data

How the results depend on the processing

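Quantile normalization, the deposited table, keeping outlier spots and dropping the filter moved no count of the 34 genes or of the other oocyte genes by over 1.5 times, and the first 2 moved none of the 91 values of single probes. Over all probes, dropping the filter took the count over 2-fold lower from 278 to 450 at 72 h, from 330 to 502 at 48 h and from 284 to 435 between control siRNA and untreated cells, and between the times from 188 to 416 lower and from 136 to 289 higher. A value was called moved when it changed by over 0.26 (log2). With normexp, 1 probe of the 34 genes was over 2-fold higher than control siRNA at 72 h and 1 at 48 h in place of 2, both for Nlrp4c, while the counts over all 27706 probes fell from 783 to 416 and from 878 to 449. Of the other oocyte genes, normexp left 1 higher at 72 h and 1 at 48 h (Dazl), and 0 lower at 72 h against 48 h in place of 2 (52 of all probes in place of 188). It also moved 13 of 91 single values, most of them faint probes. With signals of dim probes as given, the counts of the 34 genes were 4 at 72 h and 4 at 48 h, with Nobox and Nlrp4e beside Nlrp4c, and those of all probes 1264 and 1396. In that setting, 1 of the 34 genes was lower with control siRNA than in untreated cells (Rfpl4) and 1 of the other oocyte genes higher (Astl), beside 468 lower and 507 higher of all probes. Counting only probes well above background on both arrays left 1 of the other oocyte genes at 72 h and 1 at 48 h (Dazl), beside 515 and 571 of all probes. At a 4-fold threshold, 0 probes of the 34 genes were higher at 72 h and 0 at 48 h (358 and 374 of all probes), and of the other oocyte genes 1 at 72 h (Cpeb2), 0 at 48 h and 0 lower between the times (59 of all probes). Against untreated cells, the 34 genes had 1 probe higher (Nlrp4c) and 1 lower (Rfpl4) at 72 h, and 1 lower (Rfpl4) and 3 higher (Figla, Nlrp4c and Sohlh1) at 48 h, beside 705 higher and 400 lower at 72 h and 375 lower and 759 higher at 48 h over all probes. This control moved 14 of 44 single values, and the cause was not tested. No value of Nlrp4c in the 2 Rif1 siRNA comparisons changed sign. Single values of the other oocyte genes were not compared under the alternatives. No paired analysis was possible because no group had a second array. With 1 array per condition the spread between cultures is unknown, and faint levels are limited by the background.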
